A study of Homo sapiens with 6 samples.

Results

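DLL1, DLL4, NEURL1 and HES4 are 4 genes of the Notch pathway among the 753 genes of the deposited table. It sets 3 libraries of AsPC-1 cells given lentiviral short hairpin RNA to TMPRSS4 (shTMPRSS4) against 3 libraries of AsPC-1 cells given a control lentivirus (control). AsPC-1 is an established line from human pancreatic cancer, and TMPRSS4 is a serine protease anchored in the cell membrane. The 4 genes were found by their symbols in the table, and they were chosen by their counts and FPKM in the same 6 libraries. FPKM is a fragment count scaled by gene length and by sequencing depth. Each row of the table had in addition been selected for a 2-fold difference or more in either direction and a false discovery rate (FDR) no higher than 0.0490. The difference between the groups is therefore described here and is not a finding of its own. The labels do not say how many hairpins were used or whether the 3 libraries of a group came from separate cultures, and all libraries share the 1 cell line.

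Notch signalling passes between touching cells. A ligand of the Delta or Jagged family on the sending cell binds a Notch receptor on its neighbour. An E3 ubiquitin ligase drives uptake of the bound ligand into the sending cell, which pulls the receptor open for cleavage. The freed intracellular part of the receptor joins the DNA-binding protein RBPJ in the nucleus and switches on target genes, of which the HES and HEY repressors are the best known. In the embryonic mouse pancreas Dll1 marks endocrine progenitors, and in the mouse intestine Dll1 and Dll4 are carried by precursors of secretory cells. DLL4 is also a ligand of sprouting blood vessels.

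The recovered depth was 46800000 to 53300000 reads in shTMPRSS4 libraries and 30200000 to 57200000 reads in control libraries. The transcript of TMPRSS4 was not analysed here, and the labels alone give the knockdown. None of 9 markers of pancreatic ductal epithelium was among the 753 genes, so the labelled cell type was not checked either. Control replicate 3 is the single library whose description carries the code L3, where the others carry L4, and values without it are given below. In bulk RNA a change in the number of expressing cells and a change in RNA per cell cannot be told apart.

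The 4 genes lie on 4 chromosomes (GENCODE release 29, GRCh38). DLL1 (ENSG00000198719) lies on the minus strand of chromosome 6 from 170282206 to 170306565. DLL4 (ENSG00000128917) lies on the plus strand of chromosome 15 from 40929333 to 40939073. NEURL1 (ENSG00000107954) lies on the plus strand of chromosome 10 from 103493979 to 103592552. HES4 (ENSG00000188290) lies on the minus strand of chromosome 1 from 998962 to 1000172. No other gene of the table starts within 200000 bases of the start of any of the 4, among 10, 21, 15 and 35 annotated genes that do so for DLL1, DLL4, NEURL1 and HES4. The span of DLL1 overlaps the opposite-strand gene FAM120B and the same-strand long noncoding gene AL078605.1. The span of NEURL1 overlaps the antisense gene NEURL1-AS1 and the same-strand intronic gene AL121929.1. On either strand, 0 exonic bases are shared with DLL1 or NEURL1. Of the 31-base words of their transcripts, 0% in DLL1, DLL4 and HES4 and 0.243% in NEURL1 also occur in transcripts of other genes.

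Promoter windows of RefSeq (GRCh38.p14), which run from 250 bases before the start to 50 bases after it, were matched for 3 of the 4 genes, DLL4, NEURL1 and HES4. They are shown because RBPJ, the DNA-binding partner of Notch, reads a short motif. Capitals mark TGGGAA, the RBPJ core, and where present GTGGGAA, the core with its flanking G, which overlaps it. Both strands were searched. The windows are 5′ to 3′ on the strand of the gene, at chr15:40929090-40929389 (plus) for DLL4, chr10:103493455-103493754 (plus) for NEURL1 and chr1:1000048-1000347 (minus) for HES4.
DLL4: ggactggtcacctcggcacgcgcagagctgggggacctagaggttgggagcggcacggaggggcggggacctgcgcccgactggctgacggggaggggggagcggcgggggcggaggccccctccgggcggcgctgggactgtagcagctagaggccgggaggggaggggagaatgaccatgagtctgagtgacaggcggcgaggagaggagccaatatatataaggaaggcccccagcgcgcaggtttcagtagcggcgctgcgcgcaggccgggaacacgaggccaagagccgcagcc
NEURL1: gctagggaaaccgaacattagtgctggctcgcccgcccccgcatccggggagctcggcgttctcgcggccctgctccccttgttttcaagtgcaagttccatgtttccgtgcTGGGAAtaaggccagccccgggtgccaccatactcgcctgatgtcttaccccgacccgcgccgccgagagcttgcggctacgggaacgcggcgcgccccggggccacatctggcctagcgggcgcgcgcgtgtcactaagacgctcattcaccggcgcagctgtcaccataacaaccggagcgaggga
HES4: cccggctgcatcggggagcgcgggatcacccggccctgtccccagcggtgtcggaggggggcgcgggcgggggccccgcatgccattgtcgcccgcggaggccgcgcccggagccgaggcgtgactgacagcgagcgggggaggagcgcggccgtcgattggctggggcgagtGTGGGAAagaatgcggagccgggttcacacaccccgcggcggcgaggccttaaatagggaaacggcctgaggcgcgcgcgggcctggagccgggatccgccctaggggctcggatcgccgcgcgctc

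Positions count from the start used by RefSeq, with 1 for its first base and -1 for the base before it. That base is 40929340 for DLL4, 103493705 for NEURL1 and 1000097 for HES4, so the RefSeq start lies 274 bases before the GENCODE gene start given above for NEURL1. It lies after that start for DLL4 and HES4, whose GENCODE gene starts are 40929333 and 1000172. The annotations thus differ on the first transcribed base, and the positions hold for the RefSeq start alone. The HES4 window holds 1 GTGGGAA, which begins at position -77. This 7-base word was found in 6.25% of 35116 promoter windows of the same length. The NEURL1 window holds 1 TGGGAA without the flanking G, which begins at position -138, and that shorter word was found in 24.0% of windows. The DLL4 window holds neither. The E-box CANNTG, read by proneural factors, occurs 3 times in the NEURL1 window and in 68.7% of all windows, and is in neither the DLL4 nor the HES4 window. The N-box CACNAG, which contains CACGAG and is read by HES repressors, occurs once in the DLL4 window as CACGAG, at position 29. CACNAG was found in 38.0% and CACGAG in 6.78% of windows. The TATA box was searched as the exact word TATAAA, which is in none of the 3 windows and in 11.5% of all. Near words were not counted, and the DLL4 window holds the stretch tatataag. G and C made up 70.7% of the DLL4 window, 66.0% of the NEURL1 window and 75.7% of the HES4 window, against a median of 58.7% over all windows. A match of letters is a description of the window and shows no binding.

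**Figure D1:**
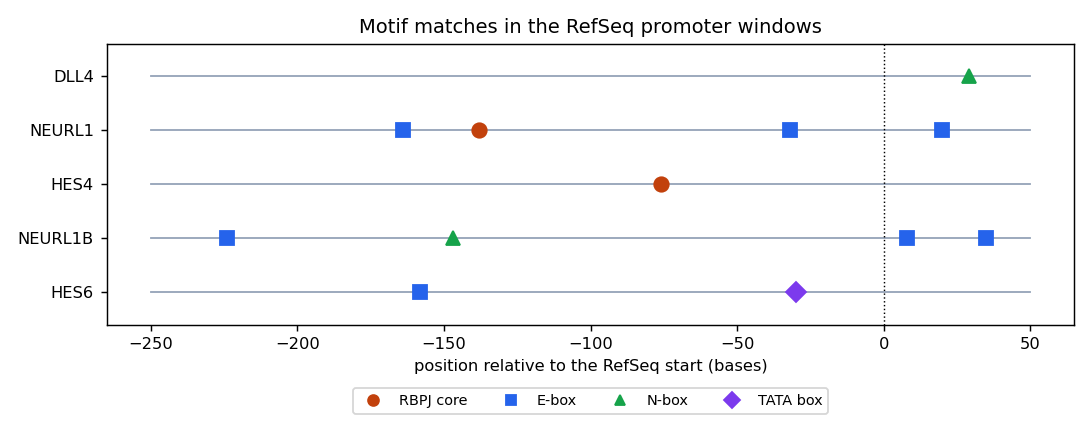
Positions of motif matches (RBPJ core, E-box, N-box and TATA box, the last as TATAAA alone, either strand) along RefSeq promoter windows. The genes are DLL4, NEURL1 and HES4 and the related listed genes NEURL1B and HES6. The horizontal axis is the distance in bases from the start, the dotted line. The RBPJ core is seen in the NEURL1 and HES4 windows, and E-boxes in the NEURL1, NEURL1B and HES6 windows.

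Both Delta ligands among the 4 genes were higher in shTMPRSS4 libraries, as were 73.7% of listed genes, and DLL1 by far the more so. DLL1, a Delta ligand that signals to Notch receptors on neighbouring cells, had 12.91, 11.83 and 13.57 FPKM in shTMPRSS4 replicates 1, 2 and 3, against 0.18, 0.07 and 0.04 FPKM in control replicates 1, 2 and 3. The groups did not overlap, and the lowest shTMPRSS4 value was 65.7 times the highest control value. The DLL1 counts behind these values were 1282, 1110 and 1181 in shTMPRSS4 libraries, against 19, 5 and 2 in control libraries. The mean was 12.8 ± 0.878 FPKM in shTMPRSS4 libraries and 0.0967 ± 0.0737 FPKM in control libraries (SD, n = 3 per group), and the log2 fold change on depth-scaled counts was 7.24 ± 0.63 (SE).

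The control level of DLL1 rests on 26 reads in all. In reads per 1000000 reads of recovered depth (RPM), DLL1 was at 23.7 RPM in the summed shTMPRSS4 libraries (95% exact Poisson interval 23.0 to 24.5) and 0.209 in the summed control libraries (0.136 to 0.306), and these intervals cover counting error only. Control replicate 1 stood above the other controls at 0.332 RPM (0.200 to 0.519). Its interval overlapped those of control replicate 2 (0.0436 to 0.314) and control replicate 3 (0.00802 to 0.239). Without control replicate 1 the log2 fold change of DLL1 was 7.80, and without control replicate 3 it was 6.74. Control cells thus held at most 19 reads of DLL1 per library, and the size of the fold change moves with the control library left out.

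DLL4, the Delta ligand best known from blood vessel sprouting, had 3.61, 4.16 and 3.71 FPKM in shTMPRSS4 replicates 1, 2 and 3, against 1.35, 1.21 and 1.32 FPKM in control replicates 1, 2 and 3. The groups did not overlap. The SD was 7.66% of the mean in shTMPRSS4 libraries and 5.70% in control libraries. The medians over listed genes at or above 1 FPKM were 8.58% in shTMPRSS4 libraries and 9.24% in control libraries. DLL4 counts were 649, 707 and 585 in shTMPRSS4 libraries, against 260, 152 and 134 in control libraries. The log2 fold change was 1.56 ± 0.08 (SE), and leaving out any 1 library kept it between 1.5 and 1.6, with 1.58 without control replicate 3. Of 10 endothelial markers, PECAM1 was in the table, at 0.197 ± 0.0451 FPKM in shTMPRSS4 libraries and 0.523 ± 0.140 FPKM in control libraries (n = 3 per group). These PECAM1 levels rest on 66 reads in all shTMPRSS4 libraries and 142 in all control libraries. The part of other cell types in the DLL4 level was not tested.

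**Figure D2:**
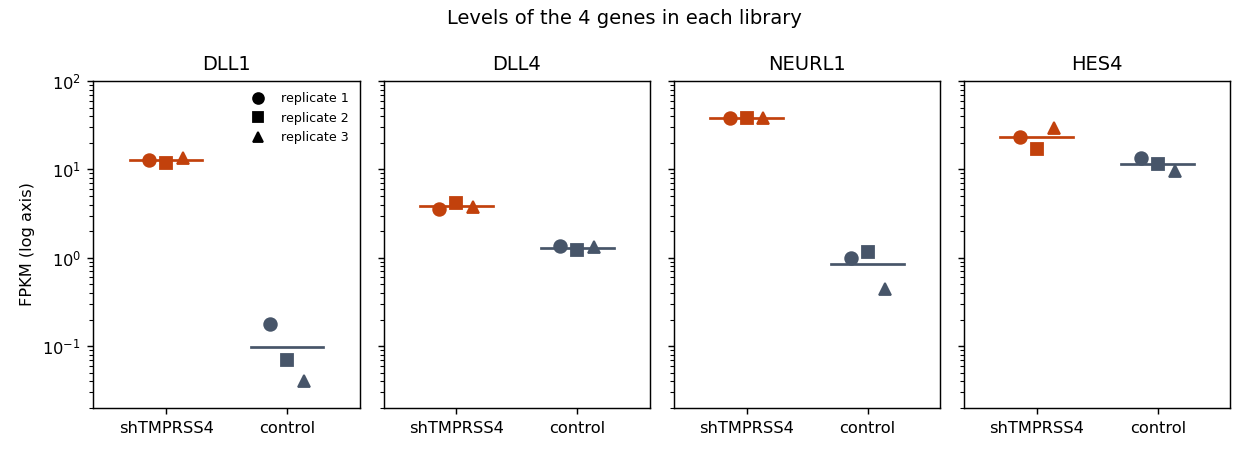
FPKM (log axis) of DLL1, DLL4, NEURL1 and HES4 in the 3 shTMPRSS4 libraries (orange) and the 3 control libraries (grey). Symbols mark the replicate number and lines the group mean. Every shTMPRSS4 library lies above every control library for each of the 4 genes, as for 72.8% of listed genes. HES4 in shTMPRSS4 libraries is spread from 16.81 to 29.72 FPKM, and NEURL1 in control libraries from 0.44 to 1.15 FPKM.

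Of the 11 ligands on the list used here, the table also held DLL3, a Delta ligand that acts mainly inside its own cell and dampens Notch there. DLL3 had 1.96, 1.99 and 2.30 FPKM in shTMPRSS4 libraries, against 0.20, 0.29 and 0.43 FPKM in control libraries. All 3 listed ligands were higher, as were 73.7% of listed genes. None of the 3 overlapped between the groups, and 72.8% of listed genes had every shTMPRSS4 library above every control library. Together DLL1, DLL3 and DLL4 summed to 18.7 ± 0.819 FPKM in shTMPRSS4 libraries and 1.70 ± 0.114 FPKM in control libraries (SD, n = 3 per group).

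The share of each gene in the sum of DLL1, DLL3 and DLL4 differed between the groups. Ligands outside the table are not in this sum. The ligands in it were selected on this contrast, so their shares restate their own fold changes. DLL1 made up 68.3% ± 2.20 of the summed FPKM in shTMPRSS4 libraries and 5.70% ± 4.22 in control libraries. DLL4 made up 20.5% ± 2.27 in shTMPRSS4 libraries and 76.3% ± 2.25 in control libraries. DLL3 made up 11.1% ± 0.574 in shTMPRSS4 libraries and 18.0% ± 6.24 in control libraries. In level, DLL1 was thus the leading listed Delta ligand in each shTMPRSS4 library and DLL4 in each control library. The FPKM ratio of DLL1 to DLL4 was 3.58, 2.84 and 3.66 in shTMPRSS4 libraries, against 0.133, 0.0579 and 0.0303 in control libraries. With each gene scaled to its longest annotated transcript in place of the length behind the FPKM, this ratio was 2.14, 1.70 and 2.18 in shTMPRSS4 libraries, against 0.0790, 0.0356 and 0.0161 in control libraries. On that scale DLL1 made up 55.7% to 60.4% of the sum in shTMPRSS4 libraries and 1.28% to 6.66% in control libraries.

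**Figure D3:**
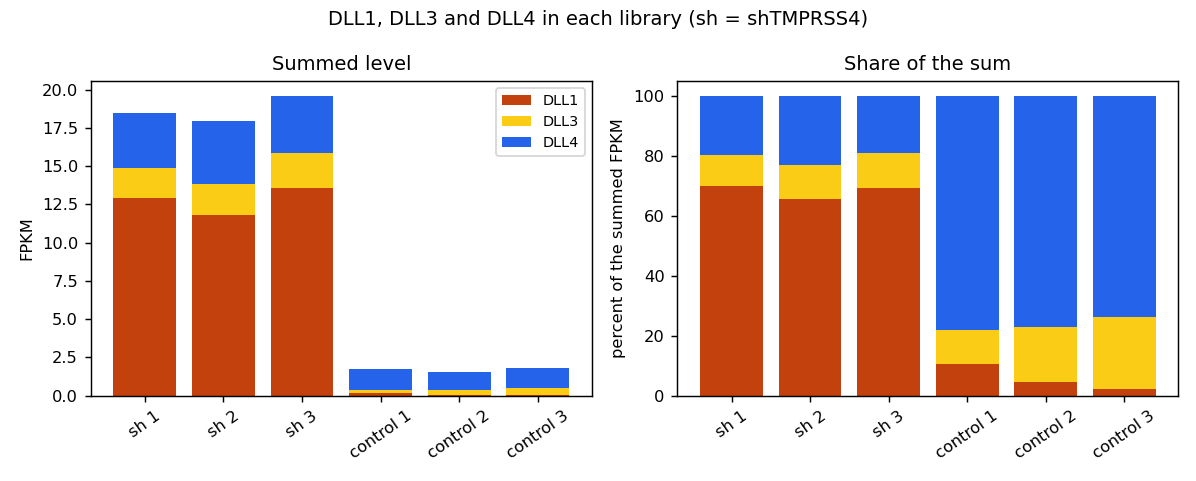
FPKM of the 3 Delta ligands of the table in each library, stacked (left, in FPKM) and as a share of their sum (right, in percent). DLL1 is 65.8% to 69.9% of the sum in shTMPRSS4 libraries (sh) and 2.23% to 10.4% in control libraries, where DLL4 is 73.7% to 78.0%.

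NEURL1, an E3 ubiquitin ligase whose Drosophila counterpart neuralized drives uptake of Delta in the sending cell, had the highest FPKM of the 4 genes in shTMPRSS4 libraries. It had 37.80, 37.72 and 37.89 FPKM in shTMPRSS4 replicates 1, 2 and 3, against 0.99, 1.15 and 0.44 FPKM in control replicates 1, 2 and 3. The groups did not overlap, and the lowest shTMPRSS4 value was 32.8 times the highest control value. NEURL1 counts were 3823, 3605 and 3359 in shTMPRSS4 libraries, against 107, 81 and 25 in control libraries. The log2 fold change was 5.57 ± 0.43 (SE).

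The spread of NEURL1 was very unequal between the groups. In shTMPRSS4 libraries the SD was 0.225% of the mean, and 433 of the 435 listed genes at or above 1 FPKM there had a larger one. The 95% exact Poisson intervals of these 3 libraries all lay between 69.2 and 74.3 RPM, so these libraries differed by less than counting error. In control libraries the SD was 43.3% of the mean, and control replicate 3 stood below the other controls. That library had 0.827 RPM of NEURL1 (95% exact Poisson interval 0.535 to 1.22), against 1.87 (1.53 to 2.26) in control replicate 1 and 2.18 (1.73 to 2.71) in control replicate 2. Without control replicate 3 the log2 fold change of NEURL1 was 5.14.

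Of the 9 ubiquitin ligases and endocytic adaptors of Notch ligands on the list, the table also held NEURL1B, the closest relative of NEURL1. NEURL1B had 0.72, 0.96 and 0.86 FPKM in shTMPRSS4 libraries, against 0.35, 0.25 and 0.28 FPKM in control libraries. It was higher without overlap, but at a far lower level, and the FPKM ratio of NEURL1 to NEURL1B was 52.5, 39.3 and 44.1 in shTMPRSS4 libraries, against 2.83, 4.60 and 1.57 in control libraries. The log2 fold change of NEURL1B was 1.52 ± 0.19 (SE). Of its 31-base words 5.50% occur in other genes, nearly all in the antisense gene AC027309.1, which shares 383 exonic bases with it, and no strand-marking step is described in the labels.

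HES4, a basic helix-loop-helix repressor that Notch switches on in human cells, was the most even of the 4 genes between the groups. It had 23.54, 16.81 and 29.72 FPKM in shTMPRSS4 replicates 1, 2 and 3, against 13.30, 11.45 and 9.52 FPKM in control replicates 1, 2 and 3. The groups did not overlap, but the lowest shTMPRSS4 value was 1.26 times the highest control value. HES4 counts were 1091, 736 and 1207 in shTMPRSS4 libraries, against 661, 370 and 250 in control libraries. The mean was 23.4 ± 6.46 FPKM in shTMPRSS4 libraries and 11.4 ± 1.89 FPKM in control libraries, with a log2 fold change of 1.01 ± 0.28 (SE). In the authors' deposited table HES4 had the 30th smallest of 753 absolute log2 fold changes, at 1.03, close to the edge of the selection, with an FDR of 3.22e-05.

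Libraries of shTMPRSS4 differed among themselves in HES4 by more than counting error. HES4 was at 20.5 RPM (95% exact Poisson interval 19.3 to 21.7) in replicate 1, 14.6 (13.6 to 15.7) in replicate 2 and 25.8 (24.4 to 27.3) in replicate 3, and no interval overlapped another. The SD of HES4 was 27.6% of the mean in this group, and 37 of the 435 listed genes at that level (8.51%) had a larger one, against a median of 8.58%. Leaving out shTMPRSS4 replicate 3 gave a log2 fold change of 0.81 and leaving out shTMPRSS4 replicate 2 gave 1.22, while without control replicate 3 it was 0.88. The fold change of HES4 therefore depends on which libraries are included more than that of DLL4 does.

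Of the 12 genes on the HES and HEY list, the table also held HES6, a relative that opposes HES1 and accompanies neuronal differentiation. HES6 had 207.81, 183.10 and 200.49 FPKM in shTMPRSS4 libraries, against 65.96, 57.04 and 64.60 FPKM in control libraries. Its log2 fold change was 1.66 ± 0.09 (SE), and it was the most abundant Notch pathway gene of the table in both groups. HES4 stood at 0.118 ± 0.0285 of the FPKM of HES6 in shTMPRSS4 libraries and at 0.183 ± 0.0311 in control libraries.

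In the whole set of Notch lists, 7 of 84 genes were in the table, and all 7 were higher in shTMPRSS4 libraries in the authors' deposited table, where 73.7% of all 753 listed genes were higher, although HES4 turned when libraries were scaled by TMM or DESeq2 size factors. They were 3 of 11 ligands, 2 of 9 ligand ubiquitin ligases and adaptors, and 2 of 12 genes of the HES and HEY list. The 4 Notch receptors had no member in the table, nor had 8 glycosyltransferases that modify them, 9 genes of receptor cleavage or 10 of receptor turnover. The 12 genes of the nuclear complex and 11 on a list of other Notch targets had none either. The table held 4.98% of the 15117 genes that the authors adjusted over and 8.33% of the Notch lists. Whether all 84 were among the 15117 was not checked. The counts per list are small, and nothing is read from which lists are filled or empty. Genes outside the table were not analysed here. In the authors' deposited table the 7 genes had a median log2 fold change of 1.66 and all 753 genes one of 1.33. The members had values of 7.05 for DLL1, 5.46 for NEURL1, 1.56 for DLL4 and 1.03 for HES4 in the authors' deposited table.

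For each of the 4 genes all shTMPRSS4 libraries stood above all control libraries, as they did for 72.8% of listed genes. The edgeR quasi-likelihood test called all 4 higher at an adjusted p under 0.05, as it did 73.3% of the 705 listed genes it tested. Since the table and the 4 genes were both chosen on this contrast, nothing is read from these counts. When libraries were scaled to the listed genes themselves, the 517 higher and 182 lower calls became 161 higher and 195 lower with TMM, and 177 and 191 with DESeq2 size factors, and HES4 was not called with either. These scalings moved the median log2 fold change of all listed genes, 1.34 at recovered depth, by -1.21 and -1.16. Under TMM the log2 fold changes were 6.07 for DLL1, 4.35 for NEURL1, 0.35 for DLL4 and -0.21 for HES4, and DESeq2 size factors gave -0.17 for HES4. These scalings shifted each of the 4 genes by about the same amount. The sign of each of the 4 under them was thus set by whether its log2 fold change at recovered depth exceeded that shift. That of HES4, 1.01, did not, and those of DLL1, NEURL1 and DLL4 did.

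**Figure D4:**
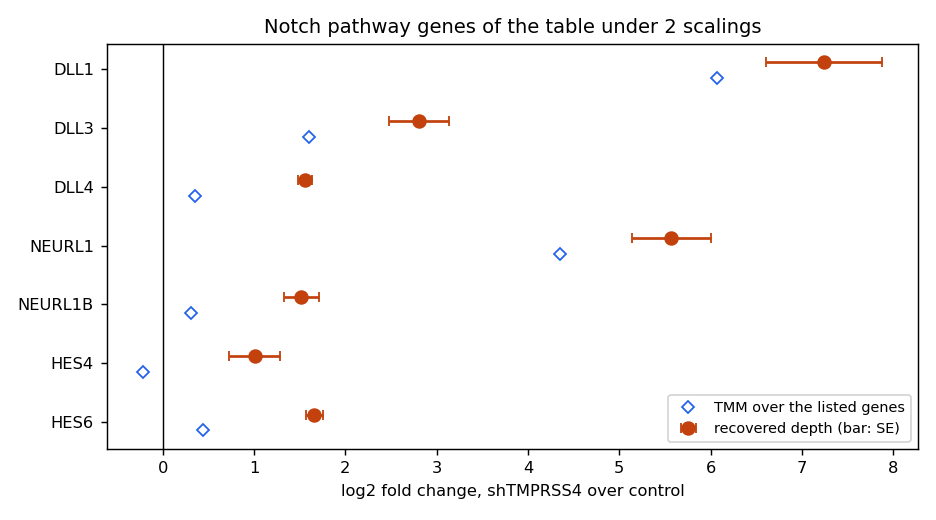
Log2 fold change of the 7 listed Notch pathway genes, shTMPRSS4 over control, with libraries scaled to recovered depth (circles, bars show the SE over 3 against 3 libraries) and by TMM over the listed genes (diamonds). HES4 alone of the 7 lies below 0 under TMM, at -0.21, and DLL1 and NEURL1 lie highest under both.

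The order of the levels among the 4 genes also differed between the groups. In FPKM it ran NEURL1 (37.8), HES4 (23.4), DLL1 (12.8) and DLL4 (3.83) in shTMPRSS4 libraries, where no neighbours in the order overlapped. In control libraries it ran HES4 (11.4), DLL4 (1.29), NEURL1 (0.860) and DLL1 (0.0967), again without overlap between neighbours. The gene lengths implied by count and FPKM were 1900 bases for NEURL1, 870 for HES4, 1860 for DLL1 and 3370 for DLL4, while the longest annotated transcripts have 4314, 1040, 3174 and 3433 bases. Rescaled to the length of the longest transcript, the shTMPRSS4 means in reads per kilobase at the same depth scale were 16.6 ± 0.0377 for NEURL1, 19.5 ± 5.39 for HES4, 7.49 ± 0.515 for DLL1 and 3.76 ± 0.288 for DLL4. On that scale NEURL1 and HES4 overlapped in shTMPRSS4 libraries, and the control order was as in FPKM. The place of DLL1 above DLL4 in shTMPRSS4 libraries and below it in control libraries held on both scales.

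The genes most like each of the 4 were sought among 456 listed genes whose higher group averaged 1 FPKM or more, by the distance between centred log2(FPKM + 0.1) profiles over 6 libraries. These genes were listed for the same contrast, and nearness says only that the values run alike. The nearest to DLL1 were B3GNT6, a glycosyltransferase of mucin glycans, at a distance of 1.07, the adhesion molecule HEPACAM2 at 1.11, and NEURL1 at 1.15, followed by NEUROG3 and ATOH8. The nearest to NEURL1 were NEUROG3, the factor that specifies endocrine progenitors, at 0.980 and DLL1 at 1.15, followed by ATOH8, HEPACAM2 and B3GNT6. At this pseudocount DLL1 and NEURL1 were among the 5 nearest to each other and shared the other 4. With a pseudocount of 1 FPKM, 3 of the 5 were retained for each gene, and NEURL1 was no longer among the 5 nearest to DLL1, while DLL1 stayed among the 5 nearest to NEURL1.

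DLL4 and HES4 had other neighbours. The nearest to DLL4 was the histone gene H2AFX at 0.173, followed by MEX3B, the actin-bundling gene FSCN1, SEPT3 and JUND. The nearest to HES4 was the transporter gene SLC6A16 at 0.428, followed by the ribonuclease gene ANG, PCSK4, PRRT1 and ZNF497. For HES4 all 5 were highest in shTMPRSS4 replicate 3, as HES4 was. With a pseudocount of 1 FPKM none of the 5 genes was retained for DLL4 or for HES4, so these neighbours depend on the pseudocount.

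**Figure D5:**
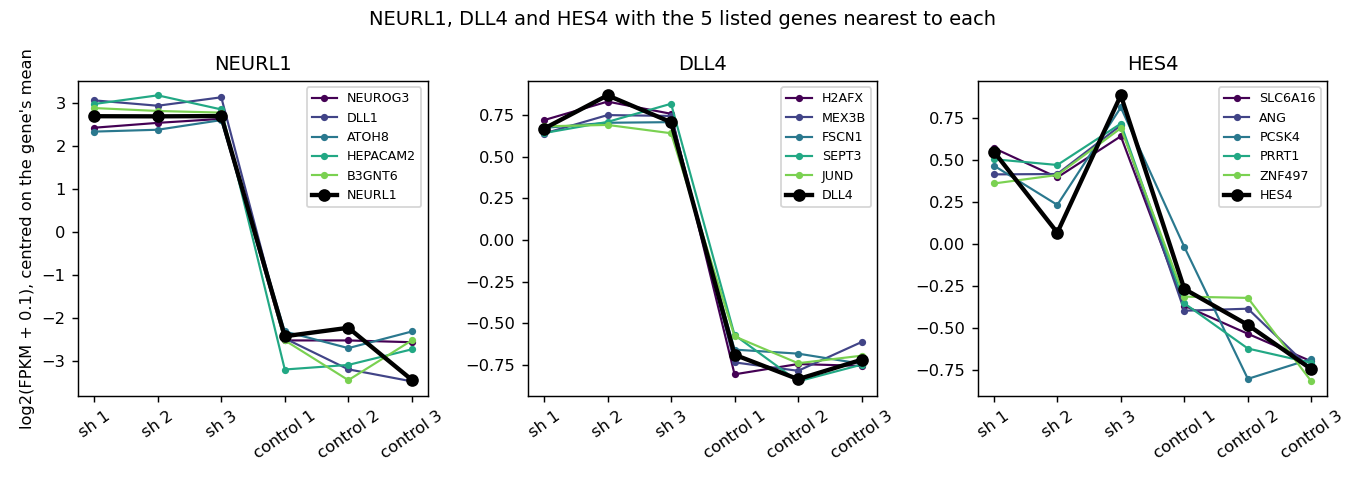
Centred log2(FPKM + 0.1) of NEURL1, DLL4 and HES4 (black) and of the 5 listed genes nearest to each (colours) in the 3 shTMPRSS4 libraries (sh) and 3 control libraries. Lines join the values of 1 gene and mark no order of the libraries. HES4 is low in shTMPRSS4 replicate 2 and high in replicate 3, while NEURL1 is level over the 3 shTMPRSS4 libraries and low in control replicate 3.

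The table annotated all 4 genes with the Gene Ontology process Notch signaling pathway, which 13 listed genes carried, 12 higher and 1 lower in the authors' deposited table, where 73.7% of all listed genes were higher. This term was read after the values were seen. Beside the 7 genes above and the factor ATOH1, it held MDK, a heparin-binding growth factor, at 94.8 ± 7.54 FPKM in shTMPRSS4 libraries and 40.8 ± 4.68 FPKM in control libraries, SORBS2, ETV2 and AGXT, all higher in the authors' deposited table. ANGPT4, an angiopoietin, was lower, at 0.163 ± 0.0493 FPKM in shTMPRSS4 libraries and 0.340 ± 0.0755 FPKM in control libraries. Under TMM the log2 fold changes of MDK, SORBS2 and ETV2 were 0, -0.06 and -0.18.

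ATOH1 and NEUROG3 are proneural factors known to be held back by Notch signalling. Of a mixed list of 27 proneural and secretory factors, 8 were in the table and 8 were higher in the authors' deposited table, where 73.7% of all listed genes were, with CREB3L1 at -0.02 on the log2 scale under TMM, among them ATOH1 at 9.99 ± 0.225 FPKM in shTMPRSS4 libraries and 0.813 ± 0.162 FPKM in control libraries, and NEUROG3 at 11.6 ± 0.831 FPKM in shTMPRSS4 libraries and 0.247 ± 0.00577 FPKM in control libraries. Of 6 neuronal markers MAP2 and TUBB3 were in the table, with TUBB3 at 88.0 ± 2.26 FPKM in shTMPRSS4 libraries and 40.1 ± 1.43 FPKM in control libraries, and MAP2 at 1.14 ± 0.176 FPKM in shTMPRSS4 libraries and 0.557 ± 0.205 FPKM in control libraries. Of 7 fibroblast markers FAP was in the table, at 1.80 ± 0.218 FPKM in shTMPRSS4 libraries and 0.513 ± 0.0987 FPKM in control libraries, and of 6 immune markers 0 were. The part of other cell types in the levels of the 4 genes was not tested.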

How the data were processed

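RNA was sequenced from 3 shTMPRSS4 and 3 control samples of AsPC-1 cells after oligo(dT) enrichment, per the labels' protocols. The authors deposited 1 table of 753 genes with read counts, FPKM rounded to 2 decimals, group means of FPKM, the log2 fold change, its p-value and FDR, per the file headers. Mouse genome builds (mm8, mm9) and Bowtie 0.12.2 appear in the submitters' processing notes, although all 753 identifiers are human. Which counting tool and annotation made the table is not given in the sources used here.

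Depth was recovered from the ratio of count to FPKM (159 genes with at least 200 counts in each library, and 12 genes with 1 transcript for the absolute scale). The log2 fold changes are mean differences of log2(depth-scaled count + 0.5), with the SE over 3 against 3 libraries and no test. edgeR 4.0.16 (R 4.3.3, quasi-likelihood, filter on low counts, recovered depth as library size, Benjamini-Hochberg adjustment over all genes tested) supplied the share of genes called; DESeq2 1.42.0 was an alternative. The edgeR step was tested on simulated data, where 502 of 695 genes were left unchanged, unlike in a table of selected genes. It called 0.996% of the unchanged genes, 53.8% of those changed 1.5-fold, 76.8% of those changed 2-fold and 100% of those changed 4-fold. Named genes were the 4 members, the listed genes of the Notch and proneural lists and the 5 nearest genes of each member. Members and lists were chosen with earlier results of these data known. Replicates were compared, and no pair matched within sampling noise (mean chi-square per gene 10.9 to 48.1). A few genes weigh heavily in these means. Without the largest gene of each pair the means were 8.74 to 13.1, and the median chi-square was 1.56 to 2.08. Where separate cultures are not stated, the spread between libraries may be technical.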

Additional observations from a re-analysis of the deposited data

How the results depend on the processing

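Scaling to the listed genes was the choice that moved the log2 fold changes and the calls. The median log2 fold change of all listed genes was 1.34 at recovered depth, 0.13 with TMM and 0.17 with DESeq2 size factors. Scaling over all genes could not be run on a table of selected genes. TMM and DESeq2 size factors draw the typical change of the genes they are run on towards 0. Every listed gene had been selected for a difference, so a turn of sign under them cannot decide the direction of a gene. Which scaling is nearer the true levels was not tested. TMM gave 161 and DESeq2 size factors 177 listed genes called higher, against 517. DLL1 moved to 6.07 with TMM and 6.11 with DESeq2 size factors, NEURL1 to 4.35 and 4.40, and DLL4 to 0.35 and 0.39, and HES4 turned to -0.21 and -0.17. With the authors' FPKM, a count offset of 2, or any 1 library left out, the 4 log2 fold changes kept their direction and moved by less than the spread between replicates. DESeq2's test, no filter on low counts and leaving out any 1 library kept the counts of calls within 1.5 times. With the replicate number as a block 507 genes were called higher and 175 lower, with all 4 genes among the higher. Same-numbered samples did not deviate together (r = -0.0236, -0.0370 and -0.00983 over 698 genes), and samples of unlike number had r from -0.0215 to 0.0512. No shared deviation was seen, which cannot tell whether same-numbered samples were handled together. Of the 5 nearest genes, a pseudocount of 1 FPKM retained 3 for DLL1 (NEURL1 not among them), 3 for NEURL1, 0 for DLL4 and 0 for HES4. Among the 4 genes depth limits DLL1 most, with 26 control reads in all, and genes outside the table were not analysed here.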
